A study of Homo sapiens with 10 samples.

Results

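The matrix metalloproteinase (MMP) gene cluster on 11q22 was described by the binding of 5 transcription factors in non-transformed and transformed breast epithelial cells. The cluster was taken as a stretch of 470 kb of chromosome 11 (chr11:102380000-102850000, hg19), and its members were the ChIP-seq peaks with a summit inside it and the 7 genes MMP7, MMP8, MMP10, MMP1, MMP3, MMP12 and MMP13. Of 879550 peaks in 10 peak lists, 293 had their summit in this stretch. Merged across lists, these peaks formed 69 sites of 248897 on chromosomes 1 to 22 and X.

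The cells were MCF10A-ER-Src, a non-tumor mammary epithelial line carrying the v-Src oncoprotein as an estrogen receptor fusion that 4-hydroxytamoxifen switches on, after which the cells become transformed. All 10 samples came from this line. For each of FOS, JUN, JUNB, NFKB1 and STAT3 there was 1 library of non-transformed cells grown with ethanol (36 h by the name of the library in its list) and 1 library of cells transformed by 1 µM 4-hydroxytamoxifen for 12 h. No factor had a replicate in either state, so every comparison below is between 2 libraries. No test across samples was possible. Intervals of pileups, of ratios at single sites and of shares are exact 95% intervals that cover counting error only. Intervals of median ratios are 95% order-statistic intervals. They reflect the spread across sites, which share the same 2 libraries and are not independent replicates. The libraries held 4837474 to 22082403 reads after duplicate removal and were made without a matched control library. NFKB1 had 2.0 times as many reads in transformed cells as in non-transformed cells, and STAT3 had 0.821 times as many.

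The genes of this cluster encode secreted proteases that cut the extracellular matrix and are known for their role in tissue remodeling and tumor invasion. MMP1, MMP8 and MMP13 are collagenases, MMP3 and MMP10 are stromelysins with broad substrates, MMP7 is matrilysin, a small protease of glandular epithelium, and MMP12 is the macrophage elastase. FOS, JUN and JUNB are subunits of AP-1, a dimeric factor that binds TGA(G/C)TCA elements and is the classical regulator of collagenase and stromelysin promoters. NFKB1 is the DNA-binding p50 subunit of NF-κB, the central factor of inflammatory signaling, and STAT3 is switched on by cytokines such as IL-6 and by Src itself.

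Sites are named by the distance of their median summit from the MMP1 start at position 102668966. MMP1 is transcribed from the minus strand, so positive distances lie upstream of MMP1, toward MMP3, MMP12 and MMP13, and negative distances lie toward MMP10, MMP8 and MMP7. RefSeq orders the genes as MMP7, MMP20, MMP27, MMP8, MMP10, MMP1, MMP3, MMP12 and MMP13. The lists and the sequence tables use different genome builds, so sites other than the one at MMP1 were not assigned to a gene.

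Promoter sequences are shown because AP-1 occupied more sites of the cluster than the other factors did. RefSeq (GRCh38.p14) promoter entries of 250 bases before the gene start were at hand for 3 of the 7 genes. They are given 5′ to 3′ on the minus strand on which the genes are transcribed, with capitals for a match to the AP-1 motif TGANTCA. MMP7 lies at chr11:102530748-102530997, MMP8 at chr11:102724955-102725204 and MMP10 at chr11:102780629-102780878.
MMP7: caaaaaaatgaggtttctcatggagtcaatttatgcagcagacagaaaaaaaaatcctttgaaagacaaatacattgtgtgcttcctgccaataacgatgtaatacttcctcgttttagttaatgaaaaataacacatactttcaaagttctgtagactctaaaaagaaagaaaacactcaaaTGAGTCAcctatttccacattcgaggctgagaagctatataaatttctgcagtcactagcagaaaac
MMP8: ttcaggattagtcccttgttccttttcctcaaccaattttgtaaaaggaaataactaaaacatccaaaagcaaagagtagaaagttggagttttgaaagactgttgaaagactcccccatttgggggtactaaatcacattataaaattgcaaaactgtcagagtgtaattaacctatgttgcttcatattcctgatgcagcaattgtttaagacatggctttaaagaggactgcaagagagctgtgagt
MMP10: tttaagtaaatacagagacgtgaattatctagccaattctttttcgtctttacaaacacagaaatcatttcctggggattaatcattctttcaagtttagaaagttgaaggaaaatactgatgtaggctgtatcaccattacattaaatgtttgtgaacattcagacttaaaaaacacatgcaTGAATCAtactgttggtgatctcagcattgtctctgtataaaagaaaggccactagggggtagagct
The MMP7 window held TGAGTCA and the MMP10 window held TGAATCA, both from −67 to −61 relative to the gene start, and MMP8 held no match. TGAATCA matches the search letters TGANTCA but, with A at its center, not the element TGA(G/C)TCA. Of 35116 RefSeq windows of the same length, 6.57% held TGANTCA on either strand. None of the 3 windows held the STAT motif TTCNNNGAA (6.57% of all windows), the NF-κB motif, GGG and CC separated by 5 free bases (54.4%), or the TEAD motif GGAATG (11.9%). The motifs were searched on both strands, and a match is only a match of letters. MMP1, MMP3, MMP12 and MMP13 were the other genes of the cluster.

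All 5 factors had more peaks in the cluster in transformed than in non-transformed cells. FOS went from 38 peaks to 51, a ratio of 1.34. JUN went from 27 to 44, a ratio of 1.63, and JUNB went from 25 to 36, a ratio of 1.44. STAT3, the one factor with fewer reads in transformed cells, doubled from 13 peaks to 26, a ratio of 2.0. NFKB1 had the largest ratio, 3.12, from 8 peaks to 25. These ratios were close to those of the whole lists for FOS (1.37), JUN (1.56), JUNB (1.34) and STAT3 (1.87), whereas the NFKB1 list as a whole grew 5.57-fold.

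The cluster was densely bound in every list. FOS had 80.9 peaks per Mb in non-transformed and 109 per Mb in transformed cells, against 44.4 and 61.0 over the effective genome. The cluster held 1.74 to 2.05 times the genome-wide density in 9 lists, and 3.47 times in the NFKB1 list of non-transformed cells, which rests on 8 peaks.

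**Figure D1:**
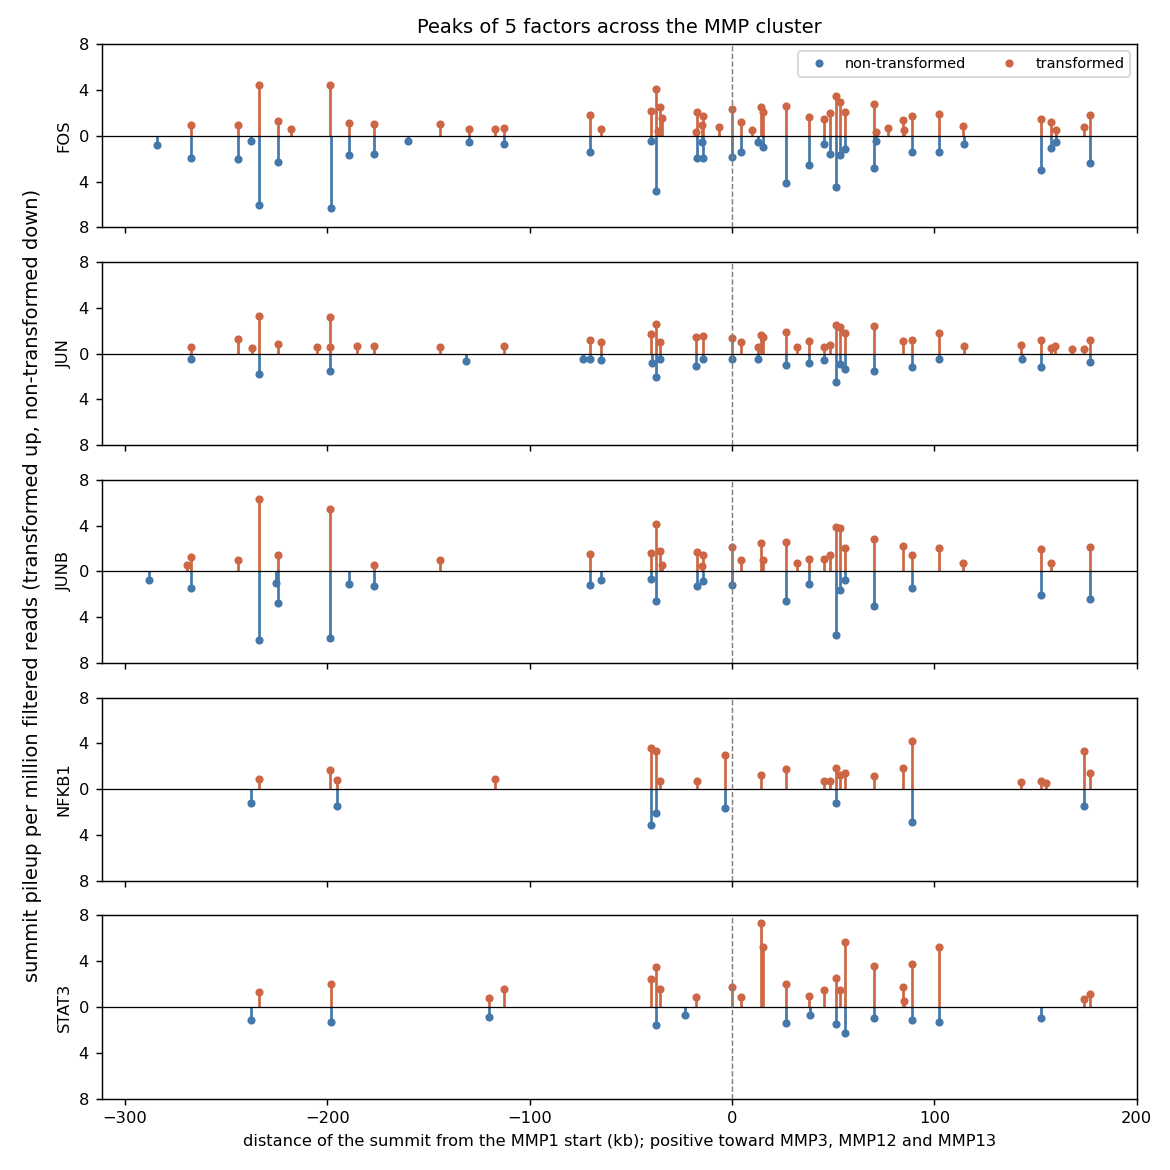
Peaks of FOS, JUN, JUNB, NFKB1 and STAT3 along the cluster, with the distance of the summit from the MMP1 start in kb on the horizontal axis and the summit pileup in reads per 1000000 filtered reads (RPM) on the vertical axis, transformed cells upward and non-transformed cells downward. The strongest FOS and JUNB peaks stand far from MMP1 at −233.9 and −198.5 kb in both states, and the strongest STAT3 peak, 7.36 RPM at +14.2 kb, has no counterpart in non-transformed cells.

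Of the 69 sites, 43 had a peak in both states, 19 in transformed cells alone and 7 in non-transformed cells alone. The 7 sites seen in non-transformed cells alone each had 1 factor. The 19 seen in transformed cells alone comprised 12 with 1 factor, 4 with 2, 1 with 3 and 2 with all 5. Sites with a peak of all 5 factors numbered 3 in non-transformed cells (4.35% of 69, 0.906 to 12.2%; 2.41% of all sites) and 16 in transformed cells (23.2%, 13.9 to 34.9%; 14.8% of all sites). The genome-wide shares lay inside both intervals. A site with all 5 factors needs an NFKB1 peak, and NFKB1 had 8 peaks in the cluster in non-transformed cells. That NFKB1 library was the shallowest of the 10, so for NFKB1 binding and depth cannot be told apart in the rise from 3 to 16. NFKB1 was the only factor added at −198.5, +26.5, +55.9 and +70.3 kb, and STAT3 the only one at −39.9 kb. At the other added sites both had peaks in transformed cells alone. The part of depth in the rise was not tested. The sites with a peak in all 10 lists numbered 3, at −37.7, +51.3 and +88.9 kb. The longest stretch without a site ran for 38.9 kb, from −112.8 to −73.9 kb.

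The site at the MMP1 start itself (chr11:102668825-102669189) was an AP-1 site in both states and gained a STAT3 peak in transformed cells. Its summits lay 9 to 73 bp upstream of the start. FOS had a summit pileup, which counts the extended reads covering the summit base, of 34 in non-transformed and 51 in transformed cells, or 1.83 and 2.31 reads per 1000000 filtered reads (RPM). Scaled pileups of different factors also depend on their antibodies, so changes are compared within a factor. The ratio of the FOS values was 1.26 (0.804 to 2.01), an interval that includes 1. JUN had 8 and 25 reads, 0.505 and 1.35 RPM, with a ratio of 2.68 (1.17 to 6.89). JUNB had 11 and 34 reads, 1.20 and 2.16 RPM, with a ratio of 1.80 (0.891 to 3.94). Only the JUN interval lay above 1. STAT3 had no peak in non-transformed cells and 16 reads, 1.78 RPM (1.02 to 2.90), in transformed cells. NFKB1 had no peak at this site in either state. Its nearest peak, at −3.6 kb, was a site of NFKB1 alone, with 8 reads (1.65 RPM) in non-transformed and 29 (3.0 RPM) in transformed cells and a ratio of 1.81 (0.808 to 4.59). The −3.6-kb site was picked after its values were seen.

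The +14.2-kb site (chr11:102682994-102683306) was the strongest STAT3 site of the cluster and was seen in transformed cells alone. No list of non-transformed cells had a peak there. In transformed cells STAT3 had 66 reads, 7.36 RPM (5.69 to 9.36), with a MACS fold enrichment of 43.6. This peak was among the top 2.39% of the 80265 STAT3 peaks by q-value. The AP-1 subunits had 56 reads for FOS (2.54 RPM), 30 for JUN (1.63) and 39 for JUNB (2.48). NFKB1 had 12 reads (1.24 RPM). The 5 summits fell within 12 bp of one another, the tightest of the 16 sites with all 5 factors, whose median span was 52.0 bp (12 to 295 bp) against 57.0 bp over 36787 such sites in the genome.

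At an unchanged scaled level, the non-transformed libraries would have been expected to show pileups of 80.4 for STAT3, 47.2 for FOS, 25.8 for JUN and 22.7 for JUNB at the +14.2-kb site. The lowest pileups of those lists were 8, 8, 7 and 5 in the cluster, respectively, and 5, 5, 5 and 4 over all chromosomes. For NFKB1 the expected pileup was 6.0, the same as the lowest of its list in the cluster and near the lowest over all chromosomes, 4.

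A second STAT3 site lay next to it at +15.4 kb (chr11:102684249-102684582). STAT3 had no peak there in non-transformed cells and 47 reads, 5.24 RPM, in transformed cells. FOS was already present with 18 reads (0.967 RPM) and had 46 (2.08 RPM) in transformed cells, a ratio of 2.15 (1.23 to 3.95). JUN and JUNB had peaks in transformed cells alone, with 26 reads (1.41 RPM) and 15 reads (0.952 RPM), and NFKB1 had none.

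**Figure D2:**
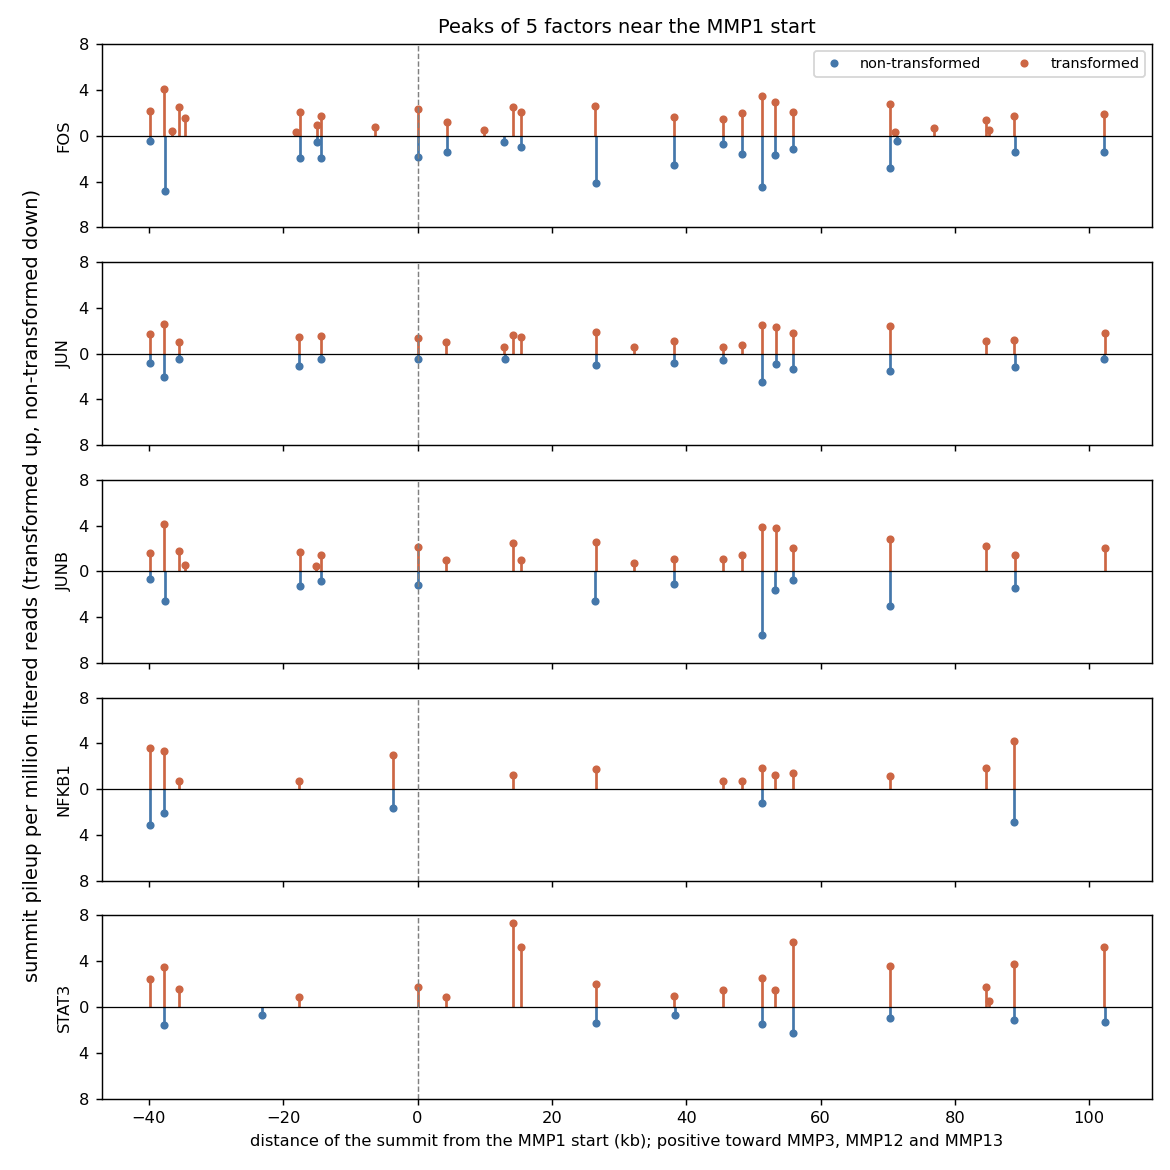
Peaks of the 5 factors near the MMP1 start, with the distance from the start in kb on the horizontal axis and the summit pileup in reads per 1000000 filtered reads (RPM) on the vertical axis, transformed cells upward and non-transformed cells downward. STAT3 peaks of 5.24 to 7.36 RPM at +14.2, +15.4, +55.9 and +102.3 kb stand above all STAT3 peaks of non-transformed cells, which reach 2.29.

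The +84.7-kb site (chr11:102753434-102753784) was the other site with all 5 factors in transformed and none in non-transformed cells. The FOS, JUN, JUNB and STAT3 levels were lower there than at +14.2 kb, and the NFKB1 level was higher. FOS had 30 reads (1.36 RPM), JUN 20 (1.08), JUNB 35 (2.22), NFKB1 18 (1.86) and STAT3 16 (1.78). The expected pileups in the non-transformed libraries at these levels, from 9.0 for NFKB1 to 25.3 for FOS, were all above the lowest of the same lists in the cluster. These 2 sites made up 2.90% of the 69 (0.353 to 10.1%), and 0.437% of all 248897 sites had the same pattern, a share inside that interval.

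STAT3 had a peak at 28 sites of the cluster when both states were counted. Its antibody is the one that the study lists for STAT3 phosphorylated on tyrosine, the active form. Of these, 15 were in transformed cells alone (53.6%, 33.9 to 72.5%; 53.5% of all STAT3 sites), 3 in non-transformed cells alone (10.7%, 2.27 to 28.2%; 13.5% of all) and 10 in both. The share gained was close to that of the whole list. At 13 of the 15 gained sites the expected pileup in the non-transformed library reached 8, the lowest value of its list in the cluster.

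The STAT3 sites already present were mostly stronger in transformed cells. The median ratio over the 10 common sites was 1.97 (1.37 to 3.90), with 9 sites higher and 1 lower, against a median of 1.71 (quartiles 1.19 to 2.54) over 29979 sites. At least 2-fold higher were 5 of the 10 (interval of the share, 18.7 to 81.3%; 39.0% of all), and for 5 the counting interval of the ratio lay above 1.

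The +102.3-kb site had 14 STAT3 reads (1.28 RPM) in non-transformed and 47 (5.24 RPM) in transformed cells, a ratio of 4.09 (2.21 to 8.05). The +70.3-kb site had 10 (0.915 RPM) and 32 (3.57 RPM), a ratio of 3.90 (1.87 to 8.89). The +88.9-kb site had 12 (1.10 RPM) and 34 (3.79 RPM), a ratio of 3.45 (1.74 to 7.32). These ratios lay on the MMP3, MMP12 and MMP13 side of MMP1. The +55.9-kb site, the strongest STAT3 site of non-transformed cells, went from 25 reads (2.29 RPM) to 51 (5.69 RPM), a ratio of 2.49 (1.51 to 4.19). On the other side, the −37.7-kb site went from 17 reads (1.56 RPM) to 31 (3.46 RPM), a ratio of 2.22 (1.19 to 4.28). STAT3 reads were extended to 150 bp in non-transformed and 119 bp in transformed cells, and a longer extension raises the pileup. With the MACS fold enrichment, which is relative to a local background, the median ratio was 1.74, against 1.55 over all common STAT3 sites. By that measure 4 of the 10 sites were at least 2-fold higher (32.0% of all).

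The 3 STAT3 peaks seen in non-transformed cells alone were at or below the median of that library in the cluster, 1.10 RPM. They had 12 reads (1.10 RPM) at −237.6 kb, 8 reads (0.732 RPM) at −23.2 kb and 10 reads (0.915 RPM) at +152.7 kb. At an unchanged scaled level, the transformed library would have been expected to show pileups of 9.8, 6.6 and 8.2, respectively. The lowest STAT3 pileup of transformed cells in the cluster was 5. The +152.7-kb site kept peaks of all 3 AP-1 subunits, with FOS at 56 reads (3.01 RPM) and 33 reads (1.49 RPM), a ratio of 0.497 (0.313 to 0.777). The −23.2-kb site had no other peak.

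The highest FOS and JUNB peaks of the cluster lay at a pair of sites far from MMP1, on the MMP10, MMP8 and MMP7 side, at −233.9 kb (chr11:102434870-102435234) and −198.5 kb (chr11:102470349-102470945). Both were present before transformation, and the 3 AP-1 subunits differed in their change. At −233.9 kb FOS had 113 reads (6.07 RPM) in non-transformed and 98 (4.44 RPM) in transformed cells, a ratio of 0.731 (0.552 to 0.967). JUN had 28 (1.77 RPM) and 61 (3.31 RPM), a ratio of 1.87 (1.18 to 3.04). JUNB had 55 (5.99 RPM) and 100 (6.35 RPM), a ratio of 1.06 (0.755 to 1.5). The FOS interval lay below 1, the JUN interval above 1 and the JUNB interval on both sides of 1. NFKB1 and STAT3 had peaks there in transformed cells alone, near the medians of their lists (0.930 and 1.23 RPM), with 9 reads (0.930 RPM) and 12 reads (1.34 RPM).

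The −198.5-kb site showed the same order. FOS had 117 reads (6.28 RPM) and 97 (4.39 RPM), a ratio of 0.699 (0.529 to 0.923). JUN had 24 (1.51 RPM) and 59 (3.20 RPM), a ratio of 2.11 (1.29 to 3.55). JUNB had 53 (5.77 RPM) and 86 (5.46 RPM), a ratio of 0.946 (0.664 to 1.36). STAT3 had 14 reads (1.28 RPM) and 18 (2.01 RPM), with the summit of transformed cells 285 bp from that of NFKB1, so that in transformed cells STAT3 and AP-1 did not share a summit there.

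**Figure D3:**
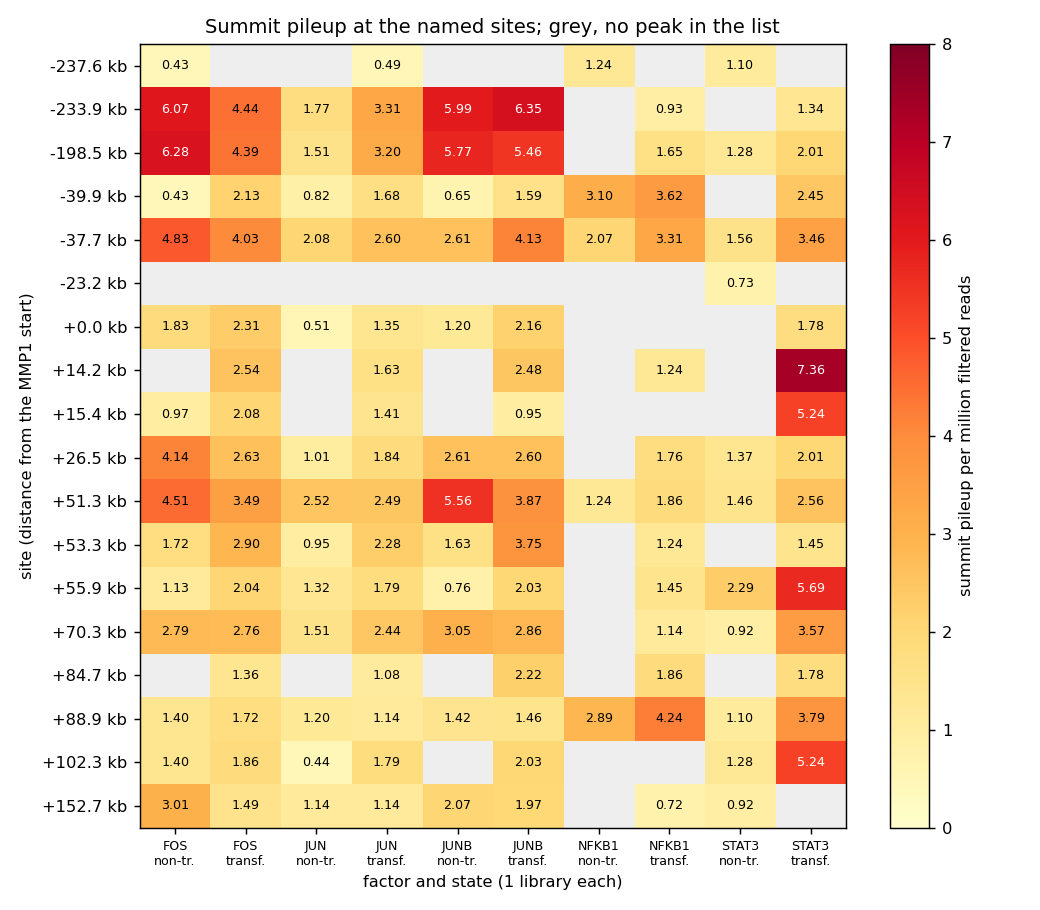
Summit pileup in reads per 1000000 filtered reads (RPM) at 18 sites of the cluster (rows, by distance from the MMP1 start) in the 10 lists (columns), with darker cells for higher values and grey where a list has no peak. FOS and JUNB lead at −233.9 and −198.5 kb in both states, and STAT3 leads at +14.2, +15.4, +55.9 and +102.3 kb in transformed cells.

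Across the cluster FOS peaks were lower at some sites and higher at others in transformed cells, whereas JUN peaks were mostly higher. FOS had 34 sites common to both states, with a median ratio of 0.905 (0.747 to 1.23), 14 higher and 20 lower, against 0.949 (quartiles 0.709 to 1.33) over all common sites. The counting interval lay above 1 at 5 of these sites and below 1 at 8. JUN had 24 common sites with a median ratio of 1.56 (1.25 to 2.11), 22 higher and 2 lower, against 1.29 (0.986 to 1.72) over all common sites. Its interval lay above 1 at 7 sites and below 1 at none. JUNB had 20 common sites with a median ratio of 1.01 (0.937 to 1.58), 10 higher and 10 lower, against 0.964 (0.712 to 1.34). This balance holds for scaling by reads: with the MACS fold enrichment, which is relative to the local background, the same 20 sites were 17 higher and 3 lower, with a median of 1.26, and the median over all common JUNB sites was 1.27. JUN was then higher at all 24 sites and FOS at 15 of 34.

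At least 2-fold higher in transformed cells were 3 of the 34 FOS sites (8.82%, 1.86 to 23.7%; 8.54% of all common FOS sites) and 3 of the 20 JUNB sites (15.0%, 3.21 to 37.9%; 7.76% of all). For JUN it was 8 of 24 sites (33.3%, 15.6 to 55.3%), and the share of 14.8% over all common JUN sites lay just below this interval. This position depends on the scaling. With the MACS fold enrichment it was again 8 of 24 JUN sites, and the share over all common JUN sites, 18.2%, lay inside the interval. The sites share their libraries and are not independent replicates, and no test of the JUN difference was made.

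The largest FOS ratio was at the −39.9-kb site (chr11:102628919-102629328), on the MMP10 side, with 8 reads (0.430 RPM) in non-transformed and 47 (2.13 RPM) in transformed cells, a ratio of 4.95 (2.32 to 12.1). This was the strongest NFKB1 site of non-transformed cells, where NFKB1 had 15 reads (3.10 RPM) and 35 (3.62 RPM) and a ratio of 1.17 (0.621 to 2.30). JUN had 13 reads (0.820 RPM) and 31 (1.68 RPM), a ratio of 2.05 (1.04 to 4.27). JUNB had 6 reads (0.654 RPM) and 25 (1.59 RPM), a ratio of 2.43 (0.972 to 7.24). STAT3 had 22 reads (2.45 RPM) in transformed cells alone. In transformed cells the 5 summits fell within 41 bp.

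The −37.7-kb site, 1 of the 3 sites with a peak in all 10 lists, lay beside it and had strong FOS binding throughout. FOS had 90 reads (4.83 RPM) and 89 (4.03 RPM), a ratio of 0.834 (0.615 to 1.13). JUNB went from 24 (2.61 RPM) to 65 (4.13 RPM), a ratio of 1.58 (0.975 to 2.64), and NFKB1 from 10 (2.07 RPM) to 32 (3.31 RPM), a ratio of 1.60 (0.767 to 3.65). These intervals all include 1.

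The +51.3-kb site was also in all 10 lists and was the strongest JUN site of non-transformed cells, with 40 reads (2.52 RPM) there and 46 (2.49 RPM) in transformed cells, a ratio of 0.988 (0.633 to 1.55). The neighboring +53.3-kb site was higher in all 3 AP-1 subunits. FOS had 32 reads (1.72 RPM) and 64 (2.90 RPM), a ratio of 1.69 (1.09 to 2.66). JUN had 15 (0.946 RPM) and 42 (2.28 RPM), a ratio of 2.41 (1.31 to 4.67). JUNB had 15 (1.63 RPM) and 59 (3.75 RPM), a ratio of 2.29 (1.28 to 4.35). All 3 intervals lay above 1, and NFKB1 and STAT3 peaks of 12 reads (1.24 RPM) and 13 reads (1.45 RPM) were seen in transformed cells alone.

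The 4 weakest sites with all 5 factors in transformed cells, at −35.6, −17.6, +45.5 and +176.9 kb, lay outside the rule for named sites and are given to complete the 16. At all 4, NFKB1 and STAT3 had peaks in transformed cells alone, with 7 to 14 reads for NFKB1 and 8 to 14 for STAT3. At −35.6, −17.6 and +45.5 kb the expected NFKB1 pileup in the non-transformed library was 3.5. This was below 4, the lowest over all peaks of that list, so a difference in NFKB1 was not detectable there. The −35.6-kb site stood out by a FOS peak of 55 reads (2.49 RPM) in transformed cells with none in non-transformed cells, where the expected pileup was 46.4. JUN was already there with 7 reads (0.442 RPM) and had 18 (0.975 RPM) in transformed cells, a ratio of 2.21 (0.880 to 6.26).

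The +26.5-kb site had FOS at 77 reads (4.14 RPM) and 58 (2.63 RPM), a ratio of 0.635 (0.444 to 0.905). JUNB had 24 reads (2.61 RPM) and 41 (2.60 RPM), a ratio of 0.996 (0.587 to 1.72). FOS was also lower at −267.4 kb, where it had 37 reads (1.99 RPM) and 20 (0.906 RPM), a ratio of 0.456 (0.251 to 0.806). The −267.4-kb site was picked after its values were seen, as the lowest FOS ratio of the cluster.

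**Figure D4:**
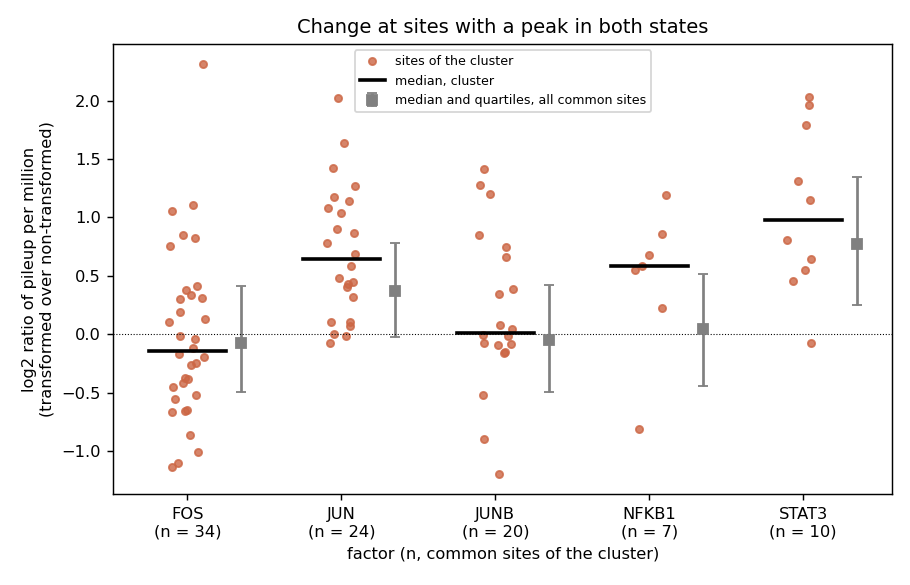
Ratio of the scaled pileup, transformed over non-transformed, on a log2 axis for each site of the cluster with a peak of the factor in both states (orange points), with the cluster median (black line) and the median and quartiles of all common sites (grey square and bars). JUN and STAT3 points lie mostly above 0, with medians of 1.56 and 1.97 as ratios, and FOS and JUNB points spread to both sides.

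FOS had 53 sites in the cluster, of which 15 were in transformed cells alone (28.3%, 16.8 to 42.3%; 35.0% of all FOS sites) and 4 in non-transformed cells alone (7.55%, 2.09 to 18.2%; 11.0% of all). JUN had 47 sites, with 20 in transformed cells alone (42.6%, 28.3 to 57.8%; 43.6% of all) and 3 in non-transformed cells alone (6.38%, 1.34 to 17.5%; 11.9% of all). JUNB had 40 sites, with 16 in transformed cells alone (40.0%, 24.9 to 56.7%; 37.7% of all) and 4 in non-transformed cells alone (10.0%, 2.79 to 23.7%; 16.1% of all). The genome-wide share lay inside the interval in each case.

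NFKB1 had 25 sites, the fewest of the 5 factors. Of these, 17 were in transformed cells alone (68.0%, 46.5 to 85.1%; 82.2% of all NFKB1 sites) and 1 in non-transformed cells alone (4.00%, 0.101 to 20.4%; 1.90% of all), a peak of 6 reads (1.24 RPM) at −237.6 kb. The NFKB1 library of non-transformed cells was the shallowest of the 10. At 10 of the 17 gained sites the expected pileup was below 6, the lowest value of that list in the cluster, and at 7 it was below 4, the lowest over all its peaks. At these 7 a difference in binding between the states was not detectable at this depth.

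Where NFKB1 was seen in both states, it was higher at 6 of 7 sites, with a median ratio of 1.5 (0.571 to 2.29; 1.03 over all common NFKB1 sites, quartiles 0.735 to 1.43). With the MACS fold enrichment the median NFKB1 ratio was 2.28, against 1.64 over all common NFKB1 sites, and 5 of the 7 sites were at least 2-fold higher (33.4% of all). NFKB1 reads were extended to 135 bp in non-transformed and 120 bp in transformed cells. One site was at least 2-fold higher (14.3%, 0.361 to 57.9%; 9.25% of all), and no counting interval lay off 1. That site, at +173.9 kb near the far end, had 7 reads (1.45 RPM) and 32 (3.31 RPM), a ratio of 2.29 (0.991 to 6.14). It was picked after its values were seen. The strongest NFKB1 peak of transformed cells was at +88.9 kb, with 14 reads (2.89 RPM) and 41 (4.24 RPM), a ratio of 1.46 (0.782 to 2.91). NFKB1 and STAT3 kept separate summits there, 138 bp apart in both states. The FOS summit stood 61 bp from that of NFKB1 in non-transformed cells and 10 bp from that of STAT3 in transformed cells. JUNB differed from FOS: in transformed cells its summit was the farthest from that of STAT3, 230 bp away.

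**Figure D5:**
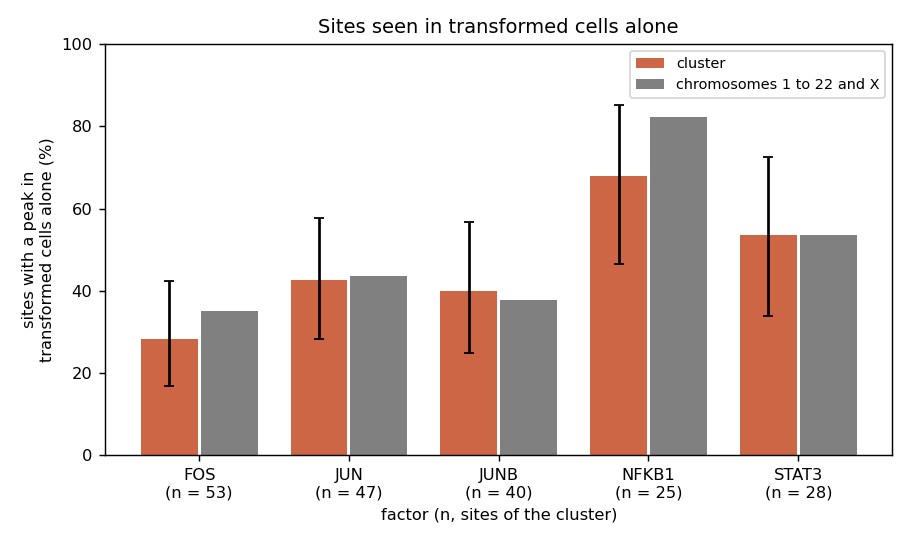
Share of each factor's sites with a peak in transformed cells alone, in percent, for the cluster (orange bars, with exact 95% binomial intervals) and for chromosomes 1 to 22 and X (grey bars). The grey bars lie inside the intervals of the cluster for all 5 factors, and NFKB1 has the highest share in both, 68.0% and 82.2%. This order does not hold in the cluster among peaks of at least 2 RPM, where few sites remain. The shares are then 40.0% for NFKB1 (2 of 5 sites), 66.7% for JUN (4 of 6) and 90.9% for STAT3 (10 of 11).

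The purpose of the peak lists was to ask where these factors meet, and most STAT3 and NFKB1 peaks of the cluster lay at AP-1 peaks. In non-transformed cells 11 of 13 STAT3 peaks overlapped a FOS, JUN or JUNB peak (84.6%, 54.6 to 98.1%; 80.3% of all STAT3 peaks), and in transformed cells 25 of 26 did (96.2%, 80.4 to 99.9%; 87.8% of all). For NFKB1 it was 5 of 8 in non-transformed cells (62.5%, 24.5 to 91.5%; 86.0% of all) and 22 of 25 in transformed cells (88.0%, 68.8 to 97.5%; 86.1% of all). Each genome-wide share lay inside the interval of the cluster, so the cluster did not stand apart in this respect at these numbers of peaks.

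STAT3 and NFKB1 peaks of transformed cells alone were also set against the AP-1 peaks of non-transformed cells. A site can hold more than 1 peak of a list, so peaks slightly outnumber sites. Of 16 STAT3 peaks of transformed cells alone, 12 overlapped an AP-1 peak of non-transformed cells (75.0%, 47.6 to 92.7%; 62.8% of all such peaks). Of 18 NFKB1 peaks of transformed cells alone, 14 did (77.8%, 52.4 to 93.6%; 73.5% of all). Both genome-wide shares lay inside these intervals, so the cluster did not stand apart here. The +14.2- and +84.7-kb sites were among the exceptions.

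The FOS summits lay close to those of JUN and JUNB. In transformed cells the median offset between FOS and JUN summits was 14.5 bp over 36 sites (18.0 bp in the genome), and between FOS and JUNB summits it was 16.5 bp over 34 sites (17.0 bp). The FOS to STAT3 offset was 23.5 bp over 24 sites (25.0 bp in the genome), the FOS to NFKB1 offset 28.5 bp over 20 sites (27.0 bp) and the NFKB1 to STAT3 offset 36 bp over 17 sites (31.0 bp). By these medians the FOS summits were nearer to those of JUN and JUNB than to those of STAT3 or NFKB1, in the cluster and the genome. The STAT3 and NFKB1 libraries held fewer reads than the AP-1 libraries of transformed cells, and no replicate gave a baseline offset. Whether depth affects this order was not tested.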

How the data were processed

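Binding of FOS, JUN, JUNB, STAT3 and NFKB1 was measured by ChIP-seq in MCF10A-ER-Src cells, with 1 sample per factor and state. Per the labels, the submitters' processing notes name Bowtie, MACS2 and hg19. The authors called peaks in each library with MACS 2.0.10.20131216 without a control, with 36-bp tags, at most 1 read per position, an effective genome of 2700000000 bp, a regional background over 1000000 bp and a q-value cutoff of 0.05. In each deposited list the signal is the pileup, a count of extended reads at the summit base without depth scaling. The deposited significance values are −log10 of the p-value and q-value. The deposited fold enrichment is the pileup divided by the background that MACS estimated locally.

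Peaks on chromosomes 1 to 22 and X entered. Each peak was its summit with 150 bp on each side, windows overlapping by at least 1 bp were joined into sites across all 10 lists, and sites of a factor were joined across its 2 lists. Where a list had several peaks at a site, the highest counted. Pileups were expressed per 1000000 filtered reads (RPM). Ratios carry exact conditional binomial intervals, pileups exact Poisson intervals, shares exact Clopper-Pearson intervals and medians order-statistic intervals, all at 95%. The expected pileup is the scaled pileup of transformed cells times the reads of the non-transformed library. For peaks of non-transformed cells alone, the states are exchanged. Libraries held 4837474 to 22082403 reads.

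Sites named were those with all 5 factors in transformed cells (the 12 highest by summed scaled pileup), the next 3, the highest peak of each list, the site nearest MMP1, and sites with STAT3 or NFKB1 in non-transformed cells alone, 18 in all. The region, genes, lists and comparisons were chosen with earlier results of these data known. Alternatives were whole deposited peaks, 50-bp windows, a −log10 q-value of at least 10, a pileup of at least 2 RPM and MACS fold enrichment. Overlaps, joined sites and pileup ratios were tested on simulated peaks. The intervals were not. Computations used Python 3.11.15, numpy 2.4.6, pandas 2.3.3, scipy 1.17.1 and matplotlib 3.10.9. The reference sequences are GRCh38, so peak sequences and gene positions of hg19 were not used here, and coordinates were not converted.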

Additional observations from a re-analysis of the deposited data

How the results depend on the processing

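Overlap of whole peaks and 50-bp half-windows left the counts and shares recomputed under them within 1.5-fold or counting error. MACS fold enrichment in place of scaled pileup moved the median ratio over all common sites by 0.13 (FOS), 0.12 (JUN), 0.40 (JUNB), 0.68 (NFKB1) and -0.14 (STAT3) on the log2 scale. It left the 5 cluster medians on the same side of 1, and put the ratio of 7 JUNB, 2 JUN and 1 FOS sites on the other side. A −log10 q-value of at least 10 left fewer peaks by construction. Peaks in the cluster were then 11 and 26 for JUN (non-transformed and transformed), 14 for JUNB in non-transformed cells, 2 and 12 for NFKB1, and 6 and 17 for STAT3, with all 5 factors at 0 sites in non-transformed and 9 in transformed cells. STAT3 peaks of non-transformed cells lay at AP-1 in 100% (6 of 6), and the JUNB median ratio turned from 1.01 to 0.951 over 13 sites. A minimum of 2 RPM left 11 and 14 peaks for FOS, 2 and 6 for JUN, 9 and 13 for JUNB, 3 and 5 for NFKB1, and 1 and 11 for STAT3. The shares of sites in transformed cells alone were then 66.7% for JUN (4 of 6 sites), 40.0% for NFKB1 (2 of 5) and 90.9% for STAT3 (10 of 11). All 5 factors met at 0 sites in non-transformed and 1 in transformed cells. No paired analysis was possible because a group is 1 sample, and no library could be left out of its group. Depth limits NFKB1 most. State, library and treatment time (36 h in ethanol by the library names, 12 h in tamoxifen) cannot be told apart for any factor.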
